A study of Mus musculus with 2 samples.

Results

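The miR-28 family consists here of 3 microRNA (miRNA) genes, Mir151, Mir28a and Mir708, measured in the hippocampus of the mouse, out of 2202 miRNA genes listed in each library. They were chosen by symbol, as the rows whose Ensembl identifiers carry these symbols in GENCODE annotation M21. This rule uses no measured value, but earlier results of these data were known when the members were chosen. The study sequenced small RNA from 2 hippocampus libraries, biological replicates 1 and 2 of a single group. Males of strain B6CASTF1/J at an age of 2 months gave the tissue, a hybrid of the first generation between C57BL/6J and CAST/EiJ. No treatment, mutation or second group is given in the labels. The libraries come from separate biosamples under 1 donor entry, so the spread between them may be smaller than that between animals.

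A miRNA is cut from a hairpin-shaped precursor. Its products, named 5p and 3p after the arm of the hairpin they come from, guide Argonaute proteins to messenger RNAs that pair with the seed, which is bases 2 to 8 of the product. The members of this family are known as miRNA genes that arose from LINE-2 elements, old mammalian retrotransposons, where inverted copies of the repeat form the arms of the hairpin. That origin is background knowledge, since no repeat annotation was used here. Each member lies inside a protein-coding gene. miR-151 is known for its link to cell migration together with its host Ptk2, the focal adhesion kinase. miR-28 is known from germinal centre B cells and their lymphomas, and miR-708 from the stress response of the endoplasmic reticulum.

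Mature sequences of 2 of the 3 members, 4 products in all, were found by symbol in RefSeq's table for GRCm38.p6. They are shown with the product of the related gene Mir28b because the shared seed and the complementary stretches can be read from them. Each is written 5′ to 3′ with the seed in capitals.
miR-28a-5p: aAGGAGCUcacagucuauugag
miR-708-5p: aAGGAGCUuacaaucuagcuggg
miR-28b: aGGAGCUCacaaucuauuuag
miR-28a-3p: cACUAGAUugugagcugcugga
miR-708-3p: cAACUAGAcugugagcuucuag

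The 5p products of Mir28a and Mir708 had the same seed, AGGAGCU. Among the 1738 mature products of the table, these 2 (0.115%) were the only ones with these letters at bases 2 to 8, while 9 products (0.518%) held AGGAGCU anywhere in the given strand. The table has no product of Mir151 or of the related gene Mir28c, so neither gene could be found in this search. Aligned from the first base, 16 of 22 bases of miR-28a-5p and miR-708-5p were identical. With positions counted from 1 at the 5′ end of miR-28a-5p, the differences were C9U, G13A, U18G, U19C, G20U and A21G, all outside the seed. miR-28b begins 1 base later than miR-28a-5p and matched it at 19 of 21 bases, with G13A and G20U, but this shift gives it another seed, GGAGCUC. The 3p products come from the other arms of the same hairpins, on the same genomic strand. Their seeds, ACUAGAU for miR-28a-3p and AACUAGA for miR-708-3p, were each found at bases 2 to 8 of 1 product. With miR-708-3p set 1 base earlier, 17 of 21 bases of the 3p products were identical.

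The 5p product of Mir28a and the 3p product of Mir708 were complementary to each other over a long stretch. The 13 bases AGCUCACAGUCUA of miR-28a-5p pair without mismatch with UAGACUGUGAGCU of miR-708-3p. The reverse pair, miR-28a-3p with miR-708-5p, had a run of 9 bases, and the pairs from the same arm, miR-28a-5p with miR-708-5p and miR-28a-3p with miR-708-3p, had 5 each. With the related gene, a run of 13 bases joins UAGAUUGUGAGCU of miR-28a-3p to AGCUCACAAUCUA of miR-28b. Of 1508770 pairs of products from different genes in the table, 77 (0.0051%) had a perfectly complementary run of 13 bases or more, and 112 of 1738 products (6.44%) were in such a pair. Within a hairpin the runs were shorter, 8 bases between the arms of Mir28a and 5 between those of Mir708, beside a median of 6 over 677 genes with both arms listed. These runs describe letters and were not tested for pairing in the tissue.

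The longest stretch shared with another gene of the table, hairpins included, was 12 bases for miR-28a-5p (with Mir28b), 9 for miR-28a-3p, 13 for miR-708-5p (with Mir18b) and 12 for miR-708-3p. A full product of 22 or 23 bases from these 4 therefore does not occur in another miRNA gene of that table. Mir151 and Mir28c have no entry in it, so copies of the products in these genes could not be seen. The rest of the genome was not searched. The point matters because reads that map to several places, 42.6% of replicate 1 and 46.0% of replicate 2, are in no gene's count.

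All 3 hairpins lay in introns on the strand of their host and overlapped 0 exons of it. Mir151 (ENSMUSG00000065612.1) is on the minus strand of chromosome 15, positions 73254815 to 73254882 of mm10, in Ptk2. It lay 168 kb from the start of its host, in a stretch of 13.8 kb free of annotated exons. Mir28a (ENSMUSG00000065494.1) is on the plus strand of chromosome 16, positions 24827855 to 24827940, in Lpp, which encodes a LIM domain protein of cell adhesions. It lay 434 kb from the start of Lpp in an exon-free stretch of 80.0 kb. Mir708 (ENSMUSG00000076143.1) is on the plus strand of chromosome 7, positions 96249424 to 96249532, in Tenm4, a teneurin of the cell surface. It lay 78.2 kb from the start of Tenm4 in an exon-free stretch of 143 kb.

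The hosts are long genes, of 218 kb for Ptk2, 599 kb for Lpp and 740 kb for Tenm4. Mir151 and Mir28a lay in the later part of theirs, at 77.2% and 72.5% of the length, and Mir708 in the early part, at 10.6%. No other miRNA gene was annotated within 10 kb of any member. The only other miRNA gene inside a host was Mir6394 in Tenm4, with 0 counts in both libraries. A count of 0 leaves room for up to 3 counts, or 1.29 and 0.879 CPM in replicates 1 and 2. CPM is the count per 1000000 counts on miRNA genes of that library. RNA of the host genes was not measured.

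**Figure D1:**
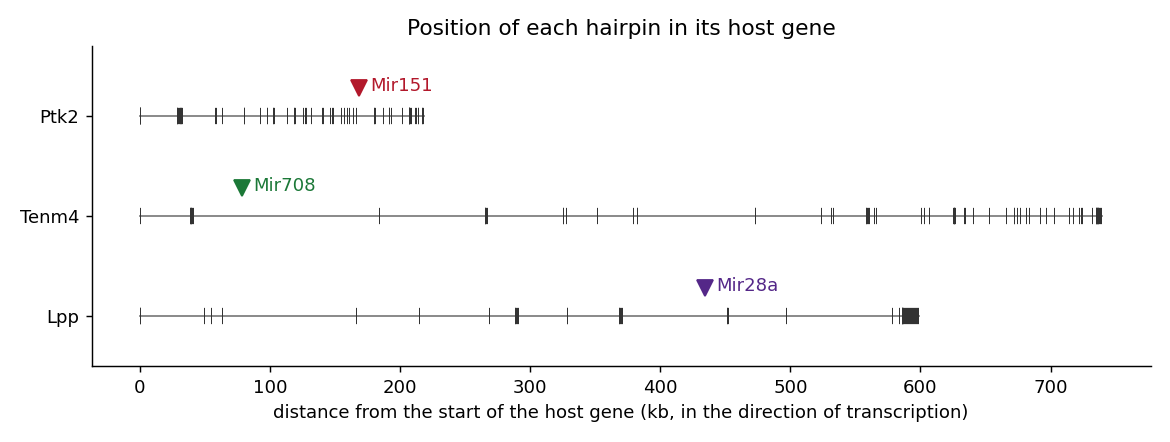
Position of each hairpin (triangle) in its host gene, in kb from the start of the host in the direction of transcription, with grey lines for the gene and black bars for all annotated exons, drawn at a minimum width of 0.8 kb. Mir708 lies 78.2 kb into Tenm4, Mir151 168 kb into Ptk2 and Mir28a 434 kb into Lpp, each between exons.

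Mir151 was the most abundant member in both libraries. It had 34002 counts in replicate 1, or 14640 CPM (Wilson 95% interval 14486 to 14795), and 44250 counts in replicate 2, or 12961 CPM (12841 to 13081). The mean was 13801 ± 1187 CPM (SD, n = 2), which placed it 11th of 2202 genes by mean CPM, at rank 12 in replicate 1 and rank 14 in replicate 2. Ranks here and below leave out reads that map to several places, which are in no gene's count.

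Mir708, which shares the 5p seed with Mir28a, came second. It had 6126 counts and 2638 CPM (2573 to 2704) in replicate 1, and 8109 counts and 2375 CPM (2324 to 2427) in replicate 2. Its mean was 2506 ± 186 CPM (SD, n = 2), rank 54 by mean, with rank 53 in replicate 1 and rank 56 in replicate 2.

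Mir28a was the lowest. It had 3059 counts and 1317 CPM (1271 to 1365) in replicate 1, and 3961 counts and 1160 CPM (1125 to 1197) in replicate 2. The mean of 1239 ± 111 CPM (SD, n = 2) gave rank 83, with rank 77 in replicate 1 and rank 84 in replicate 2. The ranges of the 3 members over the libraries did not overlap, and the order was the same in both. Each member was higher in replicate 1. Counts sum both arms of a hairpin, so they do not say how much of each level is the 5p or the 3p product. Reads are of short products under 30 nt and were not divided by gene length.

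The 3 genes together held 1.86% of miRNA-gene counts in replicate 1 and 1.65% in replicate 2, a mean of 1.75% ± 0.148 (SD, n = 2). Mir151 made up 78.7% of the family's counts in replicate 1 (Wilson 95% interval 78.3 to 79.1) and 78.6% in replicate 2 (78.2 to 78.9). Mir708 gave 14.2% (13.9 to 14.5) and 14.4% (14.1 to 14.7), and Mir28a gave 7.08% (6.84 to 7.33) and 7.03% (6.82 to 7.25). For each member the intervals of the libraries overlapped, so a change in the composition of the family was not detectable at this depth.

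The ratios between members give the same picture without the library total. Mir151 exceeded Mir708 5.55-fold in replicate 1 (exact binomial 95% interval 5.40 to 5.70) and 5.46-fold in replicate 2 (5.33 to 5.59). Mir151 exceeded Mir28a 11.1-fold (10.7 to 11.5) in replicate 1 and 11.2-fold (10.8 to 11.5) in replicate 2. Mir708 exceeded Mir28a 2.00-fold (1.92 to 2.09) and 2.05-fold (1.97 to 2.13) in replicates 1 and 2. These 3 ratios changed between the libraries by 1.69%, 0.504% and 2.23%, and the intervals of the libraries overlapped for each. No p is given for the ratios, since the smallest two-sided sign-flip p over 2 libraries is 0.5.

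**Figure D2:**
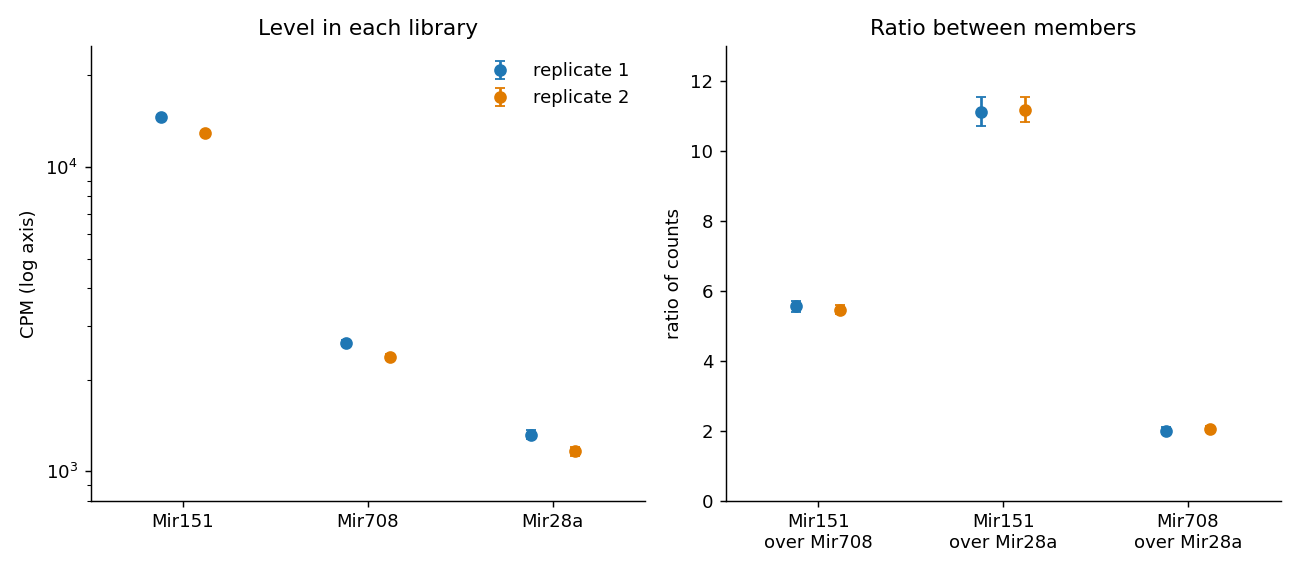
Left, CPM on a log axis of each member in replicate 1 (blue) and replicate 2 (orange) with Wilson 95% intervals, which are mostly smaller than the points. Right, ratios of counts between members with exact binomial 95% intervals. The levels of all 3 members are higher in replicate 1, while each ratio, such as 5.55 and 5.46 for Mir151 over Mir708, has overlapping intervals in the libraries.

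Among the detected genes, those that reached 2 CPM in each library, the members stood well above the middle. The median of the 401 detected genes was 87.0 CPM, which Mir151 exceeded 159-fold, Mir708 28.8-fold and Mir28a 14.2-fold. In replicate 1, 97.3% of detected genes were at or below Mir151, 87.0% at or below Mir708 and 81.0% at or below Mir28a. Of the detected genes, 163 lie in an intron of a protein-coding gene on its strand without touching an exon. Within this class Mir151 ranked 6th, Mir708 21st and Mir28a 31st, and the median was 52.4 CPM. The genes above Mir151 in the class were Mirlet7g, Mir139, Mir744, Mirlet7e and Mir23b.

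The neighbours in the order of mean CPM show how finely these ranks can be read. Above Mir151 stood Mir23b, at 20938 and 24647 CPM in replicates 1 and 2, which did not overlap it. Below Mir151 stood Mir126a, known for its expression in endothelium, at 14889 and 12474 CPM, and these values overlapped those of Mir151. Mir708 stood between Mir187, at 2987 and 2028 CPM, and Mir485, at 2368 and 2426 CPM, and overlapped both. Mir28a stood between Mir29c, at 1539 and 962 CPM, and Mir434, at 1036 and 1331 CPM, and overlapped both. Ranks next to these 5 overlapping neighbours are therefore not resolved by 2 libraries.

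**Figure D3:**
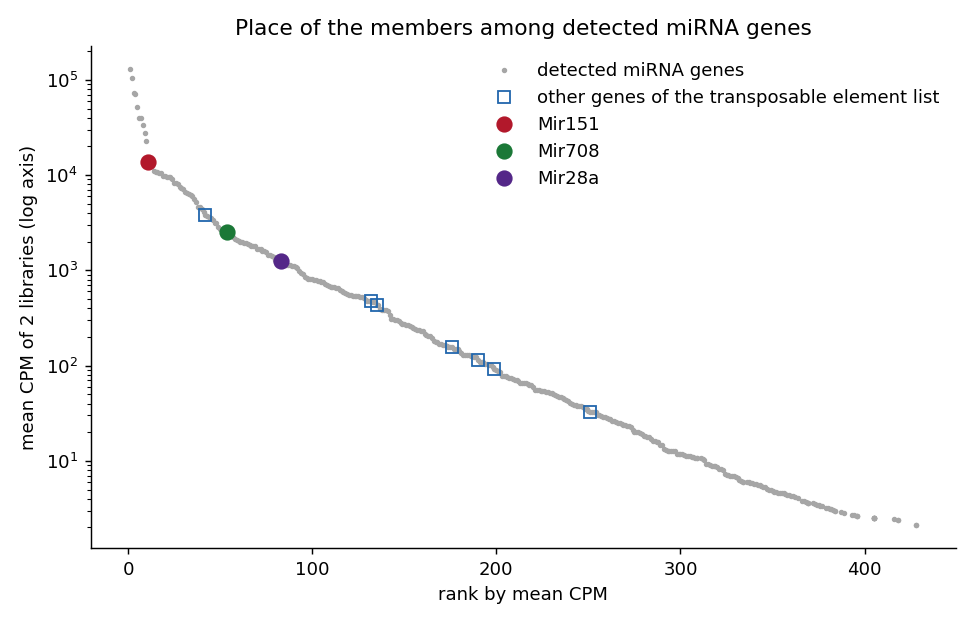
Mean CPM of the 2 libraries on a log axis against rank for the 401 detected genes (grey), with the members as filled circles and 7 other genes known from transposable elements as open squares. Mir151 is at rank 11, Mir708 at rank 54 and Mir28a at rank 83, all above the median of 87.0 CPM.

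The related genes Mir28b and Mir28c were not detected. Mir28b had 0 counts in both libraries. In counts, which leave out multimapping reads, Mir28a was thus at least 1020-fold higher than Mir28b in replicate 1. In replicate 2 it was at least 1320-fold higher, with 3 counts per library as the floor. Mir28c (chromosome 15, minus strand, positions 53614205 to 53614279, within Samd12) had 0 counts in replicate 1 and 2 in replicate 2. Whether reads of Mir28b or Mir28c were set aside as multimapping was not tested. Given the runs of at most 12 bases shared by miR-28a-5p with other listed genes, the listed sequence of Mir28b does not contain a full-length read of it.

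Almost all reads of the members came from the annotated strand. On the opposite strand Mir151 and Mir28a had 0 counts in both libraries. Mir708 had 3 in replicate 1 and 2 in replicate 2, beside 6126 and 8109 on its own strand, and 3 counts is also what a count of 0 allows. Over the detected genes the opposite strand held 0.00650% and 0.00659% of the counts on both strands in replicates 1 and 2, and over all 2202 genes it held 6.84% and 6.91%. Of the latter counts, 99.9% in replicate 1 and 99.96% in replicate 2 were in the 64 genes that overlap a miRNA gene on the other strand. No miRNA gene overlapped a member, and the column that ignores strand gave the same counts for Mir151 and Mir28a.

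All 3 members were lower in replicate 2, by a small and similar amount. The comparison is between 2 libraries, not conditions, by an exact binomial test (two-sided) on library sizes scaled by TMM, with p-values adjusted by Benjamini-Hochberg over the 401 detected genes. Mir151 was 1.15-fold higher in replicate 1 (95% interval 1.13 to 1.17, adjusted exact binomial p = 1.15e-81). Mir708 was 1.13-fold higher (1.09 to 1.17, adjusted exact binomial p = 2.60e-12), and Mir28a 1.16-fold higher (1.10 to 1.21, adjusted exact binomial p = 8.66e-09). The test called 3 of 3 members, where it called 50.9% of all detected genes and 94.6% of the 92 genes at a mean of 1000 CPM or more. The members' calls are near the share of genes of like abundance, and nothing particular to the family is read from them. Of all detected genes, 22.7% were called in the direction of the members, lower in replicate 2, and 28.2% in the other direction.

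The size of the difference was on the smaller side. The median difference in either direction was 1.15-fold over the members and 1.26-fold over all detected genes, and it was 1.22-fold over the genes at 1000 CPM or more. The log2 folds of replicate 2 over replicate 1 were -0.20 for Mir151, -0.18 for Mir708 and -0.21 for Mir28a, inside the middle 50% of detected genes, from -0.27 to 0.35. The coefficient of variation of the CPM over the 2 libraries was 8.60% for Mir151, 7.41% for Mir708 and 8.96% for Mir28a. Its median was 16.0% over detected genes and 13.6% over the genes at 1000 CPM or more.

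**Figure D4:**
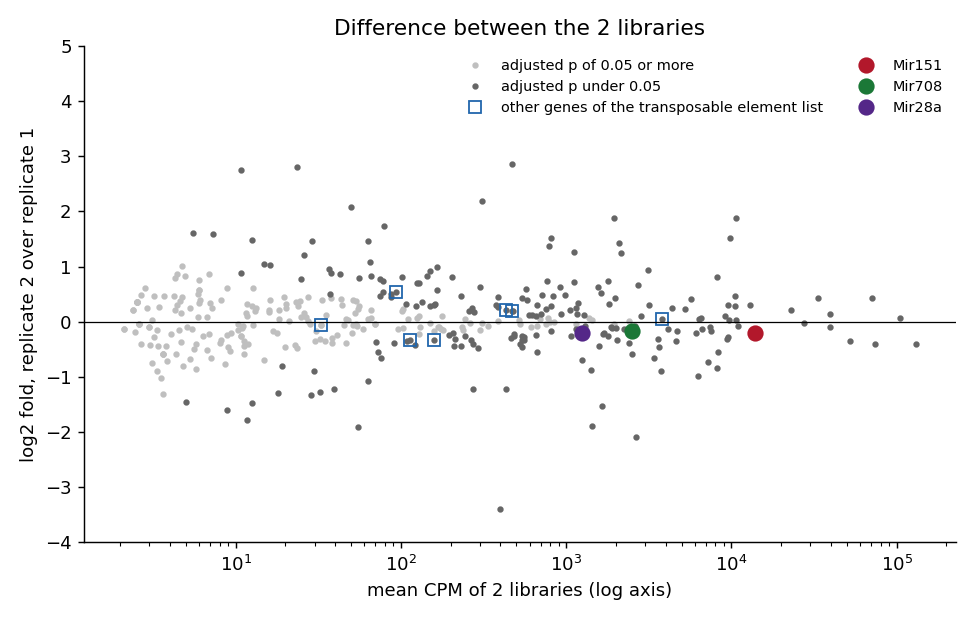
Log2 fold of replicate 2 over replicate 1 against mean CPM on a log axis for the 401 detected genes, dark grey where the adjusted exact binomial p was under 0.05, with the members as filled circles and other genes known from transposable elements as open squares. The members lie close together below the line of equality, at -0.18 to -0.21, within the cloud of other genes.

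The tissue label was checked against cell type markers. Neuron-enriched genes (7 of 9 detected) had sums of 24734 and 25642 CPM in replicates 1 and 2. Most of this came from Mir132 (11112 and 10719 CPM), Mir137 (8697 and 12170 CPM) and Mir138-1 (4809 and 2633 CPM). Mir137 was higher in replicate 2 and Mir138-1 lower. Mir9-3 stood at 99.9 and 92.9 CPM. The other detected genes of the list, Mir9-1, Mir9-2 and Mir124a-1, stood at 2.58 to 20.2 CPM, below the liver and muscle markers. Mir124a-2 had 1 and 0 counts and Mir124a-3 had 0 and 5. These loci are known to share their product with Mir124a-1. Whether reads of the Mir124a and Mir9 genes were set aside as multimapping was not tested. Their counts therefore do not give the level of their products in the tissue. The liver marker Mir122 stood at 52.1 and 40.7 CPM and the muscle marker Mir206 at 55.1 and 24.0 CPM. Other cell types differed between the libraries in both directions. Lower in replicate 2, as the members were, stood the endothelial Mir126a and the oligodendrocyte list (2 of 2 detected, 4358 and 2676 CPM). Most of the fall of that list was in Mir219a-2, from 2447 CPM in replicate 1 to 865 CPM in replicate 2. Mir338 changed little, with 1911 and 1811 CPM. Higher stood the mural list (2 of 2, 6456 and 6935 CPM) and the leukocyte list (2 of 2, 632 and 1059 CPM). The 2 erythrocyte markers went opposite ways, Mir451a from 1807 CPM in replicate 1 to 1007 CPM in replicate 2 and Mir144 from 94.7 to 121 CPM. Their part in the differences of the members was not tested. In bulk tissue, fewer cells of a type and less RNA per cell cannot be told apart.

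The members were set beside 8 other miRNA genes described as arising from transposable elements, taken from general knowledge. Of these, 7 were detected, with a median of 157 CPM, against 2506 CPM for the members. Mir378a, in an intron of Ppargc1b, was the most abundant with 3680 and 3887 CPM, between Mir151 and Mir708 in both. Mir326, in Arrb1, had 437 and 507 CPM, and Mir421 had 398 and 469 CPM. Mir325 was at 174 and 141 CPM and Mir340, in Rnf130, at 126 and 102 CPM. Mir374b had 74.9 and 111 CPM, and Mir345 had 33.2 and 32.5 CPM. Mir374c, which overlaps Mir374b on the other strand, had 0 and 3 counts. Members and list were not compared by a test, since both were chosen by name and genes are not replicates.

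Between the libraries the list did not move as a block. By the same exact binomial test, 6 of its 7 detected genes differed, 4 of them higher in replicate 2 (Mir326, Mir421, Mir374b and Mir378a) and 2 lower (Mir325 and Mir340), beside 50.9% called over all detected genes. Mir345 did not pass (adjusted exact binomial p = 0.881). Mir374b and Mir378a also show where the strand matters. Each overlaps another annotated miRNA gene on the opposite strand, and both were listed at 0 in the column that ignores strand.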

How the data were processed

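Counts of reads per miRNA gene were deposited by the authors as raw whole numbers, with 1 table for each library and 3 columns (both strands, strand of the gene, opposite strand). Per the file descriptions deposited with them, the assembly was mm10 and the annotation GENCODE M21. The aligner and counter are not given in the sources used here. The 4 rows that name no gene, 63.9% of reads in replicate 1 and 65.9% in replicate 2, were left out of library sizes. The same-strand column summed to 2322520 and 3414105 counts on miRNA genes, of 6441333 and 10003856 reads.

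The members and lists were chosen with earlier results of these data known. The genes named are the members, Mir28b and Mir28c, genes that share a seed with a member or overlap one, the neighbours in mean CPM, a list of 8 miRNA genes known from transposable elements, and cell type markers. Mir6394 was named after its value was seen. Levels are CPM with Wilson 95% intervals and mean ± SD. Ratios have exact (Clopper-Pearson) intervals. TMM factors came from edgeR 4.0.16 and size factors, as an alternative, from DESeq2 1.42.0 (R 4.3.3). Library differences were tested with scipy 1.17.1, at an adjusted p threshold of 0.05, adding 0.5 to counts for log2 folds. The test was checked on simulated counts that held sampling noise only, so the check does not cover further variation between libraries. Intervals cover counting error only, because amplified reads were not traced to single molecules. The tables differ by more than sampling noise (chi-square 132901, 714 degrees of freedom), so they count as 2 libraries. CPM values are shares, and reads set aside as multimapping can lower any gene that has copies elsewhere.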

Additional observations from a re-analysis of the deposited data

How the results depend on the processing

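Of 31 values recomputed under alternatives that kept both libraries, 26 moved by less than the replicate SD, kept their call or, for counts of genes, stayed within 1.5 times, and 5 moved. A total without the 5 genes of highest mean CPM raised the mean level of Mir151 to 24345 CPM, of Mir708 to 4420 CPM, of Mir28a to 2185 CPM and of the 3 together to 30951 CPM, as a smaller total must. The column that ignores strand gave Mir708 a mean of 2707 CPM, since its total is smaller. All 3 members stayed lower in replicate 2 and past the threshold with TMM, DESeq2 size factors, plain totals, no filter on low counts and the unstranded column, with 1.11-fold to 1.18-fold differences. The number of genes that differed was 204 of 401 (50.9%), 198 of 401 with DESeq2 size factors, 205 of 401 with plain totals, 184 of 376 (48.9%) with the unstranded column and 210 of 715 (29.4%) without a filter, which adds genes of few counts. Leaving out replicate 1 or 2 leaves the value of the other library, as given above, which is no check of stability. No paired analysis was possible because there is 1 group. With 2 libraries of 1 group, differences between conditions cannot be measured, and counts of 2 for Mir28c are at the limit of the depth.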
